A study of Mus musculus with 33 samples.

Results

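The question addressed here was whether the loss of 1 copy of Six2 had the same effect on kidney RNA at a later and at an earlier stage of mouse development. The heterozygous effect was taken as heterozygous minus wild type within a stage, and the effect at embryonic day 15.5 (E15.5) was set against that at E11.5. The data were 28 of the 33 RNA-seq libraries of the series, made from 19 of its 24 specimens, chosen by their genotype and age labels. At E15.5 they were Six2 heterozygous kidneys (4 specimens, 8 libraries) and wild-type kidneys (4 specimens, 8 libraries), and at E11.5 heterozygous kidneys (5 specimens, 6 libraries) and wild-type kidneys (6 specimens, 6 libraries). Each library held total RNA of whole embryonic kidney. The 5 knockout specimens, present at E11.5, entered the fits to share the estimate of the spread and are quoted where a heterozygous gene is set beside them. The labels give neither the strain nor a description of the Six2 allele. The batch 1 titles of the heterozygous E15.5 libraries begin with GCE, which the labels do not explain. Sequencing runs of 1 specimen were summed, so every n below counts specimens.

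Six2 is a homeobox transcription factor of the cap mesenchyme, the layer of self-renewing nephron progenitors that covers each ureteric bud tip. It keeps these cells undifferentiated, and mice without it form nephrons too early and exhaust the progenitors. E11.5 is the stage at which the ureteric bud has entered the metanephric mesenchyme, while at E15.5 cap mesenchyme, forming nephrons, branched ureteric tree and stroma lie side by side. In whole kidney, fewer cells of a type and less RNA per cell cannot be told apart.

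Specimens held 46814370 to 65108149 counts at E15.5 and 13439802 to 41281707 at E11.5. The biological coefficient of variation was 4.56% at E15.5 and 12.7% at E11.5, so the E15.5 effects were measured with a median standard error of 0.044 on the log2 scale, the E11.5 effects with 0.094 and the difference between them with 0.118. Ribosomal RNA genes took 0.398% to 1.08% of counts at E15.5. At E11.5 they took 3.57% to 18.7% in heterozygous and 20.5% to 26.6% in wild-type libraries of batch 1, and 0.222% to 0.357% in both genotypes of batch 2. In knockout libraries they took 0.878% to 12.5% in batch 1 and 0.345% to 0.469% in batch 2. Summed over each list, markers of cap mesenchyme, early nephron, ureteric bud, stroma and podocytes were present in every specimen. A sum does not show each member, and the podocyte genes Nphs1 and Kirrel2 were too low at E11.5 to be tested there. Muscle and cartilage markers summed to 232 to 349 CPM in heterozygous and 269 to 313 CPM in wild-type E15.5 specimens, against 548 to 1015 and 561 to 896 CPM in heterozygous and wild-type E11.5 specimens. Levels below are CPM, counts scaled to library size over all 24 specimens. Changes are log2 ratios with their standard errors, and calls are at an adjusted p under 0.05 from edgeR's quasi-likelihood test over all genes tested.

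The 3 upstream sequences that follow belong to the targeted gene, to the gene with the largest fall at both stages among genes called at both, and to the 1 gene whose effect differed between stages. Each is the 250 bases before an annotated start in RefSeq (GRCm38.p6), written 5′ to 3′ on the gene's strand. Cited1 has 3 such windows and Esr1 has 2, and the farthest upstream is shown. The gene positions given below come from another annotation. By those positions the Esr1 window lies inside its gene, and the Six2 window overlaps the start of its gene. Capitals mark, on either strand, any of 3 common promoter motifs. The GC box was searched as GGGCGG. The letters CCAAT were searched as such. The TATA box was searched as TATAAA.
Six2 (chr17:85688255-85688504, minus strand): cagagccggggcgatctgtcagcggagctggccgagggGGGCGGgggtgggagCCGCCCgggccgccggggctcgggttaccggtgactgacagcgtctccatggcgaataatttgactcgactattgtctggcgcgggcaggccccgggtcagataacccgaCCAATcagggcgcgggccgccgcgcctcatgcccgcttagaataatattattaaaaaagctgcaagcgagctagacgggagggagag
Cited1 (chrX:102252182-102252431, minus strand): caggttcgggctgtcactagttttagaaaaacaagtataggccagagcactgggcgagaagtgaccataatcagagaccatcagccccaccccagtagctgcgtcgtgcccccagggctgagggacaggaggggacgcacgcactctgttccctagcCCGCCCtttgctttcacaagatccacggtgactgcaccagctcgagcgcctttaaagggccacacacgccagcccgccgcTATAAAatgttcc
Esr1 (chr10:4611739-4611988, plus strand): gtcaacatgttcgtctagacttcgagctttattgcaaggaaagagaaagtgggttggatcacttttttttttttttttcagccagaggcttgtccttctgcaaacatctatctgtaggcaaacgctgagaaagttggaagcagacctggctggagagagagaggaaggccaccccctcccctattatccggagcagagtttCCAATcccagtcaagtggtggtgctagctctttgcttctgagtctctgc
The Six2 window holds 2 GC boxes and 1 CCAAT box, the Cited1 window shown 1 GC box and 1 TATA box, and the Esr1 window shown 1 CCAAT box. The other Cited1 windows hold no GC box. Over all 32851 RefSeq windows of this length, 32.7% hold a GC box, 33.8% a CCAAT box and 12.4% a TATA box. The MEF3 site, bound by relatives of Six2 (TCAGGTTTC, either strand) is in 0.387% of all windows and in 0 of the 11 windows found for 8 of the 12 genes looked up, and the looser TCANGTTTC, which includes it, is in 0.989% of all windows and in 0 of the 11. The genes looked up were those called at both stages or at E11.5, and Pcdh8, with Crym, Actn3, Dtna and Zmat4 having no entry.

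Six2 RNA was lower in heterozygotes at both stages and by a like proportion. In heterozygous E15.5 kidneys it measured 5.69, 6.23, 6.19 and 6.51 CPM, against 11.01, 12.8, 11.05 and 11.9 CPM in wild type. In heterozygous E11.5 kidneys it measured 14.1, 13.9, 16.96, 9.90 and 10.6 CPM, against 33.1, 30.5, 22.1, 19.5, 20.1 and 24.9 CPM in wild type. The groups did not overlap at either stage, so Six2 stood on the side its label gives in all 19 specimens. As a share of wild type, heterozygotes held 52.5% at E15.5 (95% interval 48.3% to 57.0%) and 51.3% at E11.5 (42.9% to 61.2%). An exact two-sided permutation test over specimens gave p = 0.0286 at E15.5 and p = 0.00216 at E11.5, each the smallest its number of specimens allows. The difference between the stages' effects was 0.01 ± 0.15 (95% interval −0.31 to 0.32), while the wild-type level itself changed by −1.08 ± 0.11 between E11.5 and E15.5. The Six2 gene lies on the minus strand at chr17:85684277-85688274 (GRCm38, as are all gene positions here).

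With these fits a small group of heterozygous effects was called lasting, and none was called early only or late only. At E15.5, 104 of 18244 genes were called (0.57%), 38 higher (0.208%) and 66 lower (0.362%) in heterozygotes. At E11.5, 11 of 16141 were called (0.0681%), 2 higher (0.0124%) and 9 lower (0.0558%). Between stages the effect itself differed for 1 of 17362 genes (0.00576%), Esr1, and 594 genes (3.42%) had an unadjusted p under 0.05 for that difference. Wild-type kidneys differed between the stages in 11479 genes (66.1%). Of the 15977 genes tested in all 3 fits, 9 (0.0563%) were called at both stages in the same direction. These lasting effects were lower levels of Six2, Cited1, Crym, Actn3, Moxd1, Dtna, Shisa2 and Sema4g and a higher count for Esr1, whose origin is qualified below. An early-only effect, called at E11.5 and not at E15.5 with the difference called too, was found for 0 genes, and a late-only effect for 0. With DESeq2 the same 2 counts were 0 and 1, the 1 being Pcdh8. With the first part of each E11.5 title (G1 to G6, whose meaning the labels do not give) as a block in place of batch they were 5 and 1, with 22 calls of the difference. With E11.5 batch 1 alone they were 0 and 1, the 1 being Esr1, with 6 calls of the difference. There Esr1 met the late-only rule because its E11.5 effect of 4.38 lost its call (adjusted p = 0.201 in edgeR). That effect was larger than the 1.20 at E15.5, so Esr1 was not a late effect. A further 2 genes were called at E11.5 and 92 at E15.5 with no call of the difference, so for these the data do not show that the stages differ.

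The number of E11.5 calls, and with it the size of the lasting group, depended on single embryos. Against 11 calls in all, there was 1 call without heterozygous replicate 4, 3 without wild-type replicate 2, 5 without heterozygous replicate 3 or 5, and 6 without heterozygous replicate 2 or wild-type replicate 4. Dropping wild-type replicate 3 gave 17. The lasting count of 9 was 1 without heterozygous replicate 4, 2 without wild-type replicate 2, 3 without heterozygous replicate 3 or 5, 4 without heterozygous replicate 2 or wild-type replicate 4, and 5 without heterozygous replicate 1. Esr1 remained in every one of these fits. The E11.5 effects of the lasting lower genes all stayed negative when 1 embryo was left out. They ran from −1.07 to −0.91 for Six2, −1.52 to −1.18 for Cited1, −1.39 to −1.15 for Crym and −1.07 to −0.86 for Actn3. For Moxd1 they ran from −1.02 to −0.82, for Dtna −0.92 to −0.81, for Shisa2 −0.82 to −0.67 and for Sema4g −0.59 to −0.49. Ribosomal RNA shares differed between genotypes in batch 1. With that share as a covariate the E11.5 and lasting counts were 11 and 9, while without the libraries above 5% they were 1 and 1. Without those libraries the E11.5 effects of the lasting lower genes stayed negative, from −1.56 for Crym to −0.54 for Sema4g. At E15.5 the 104 calls became 66, 67 and 69 without wild-type replicate 3, wild-type replicate 4 and heterozygous replicate 3, and all 9 lasting genes kept their E15.5 call when any 1 specimen was left out.

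**Figure D1:**
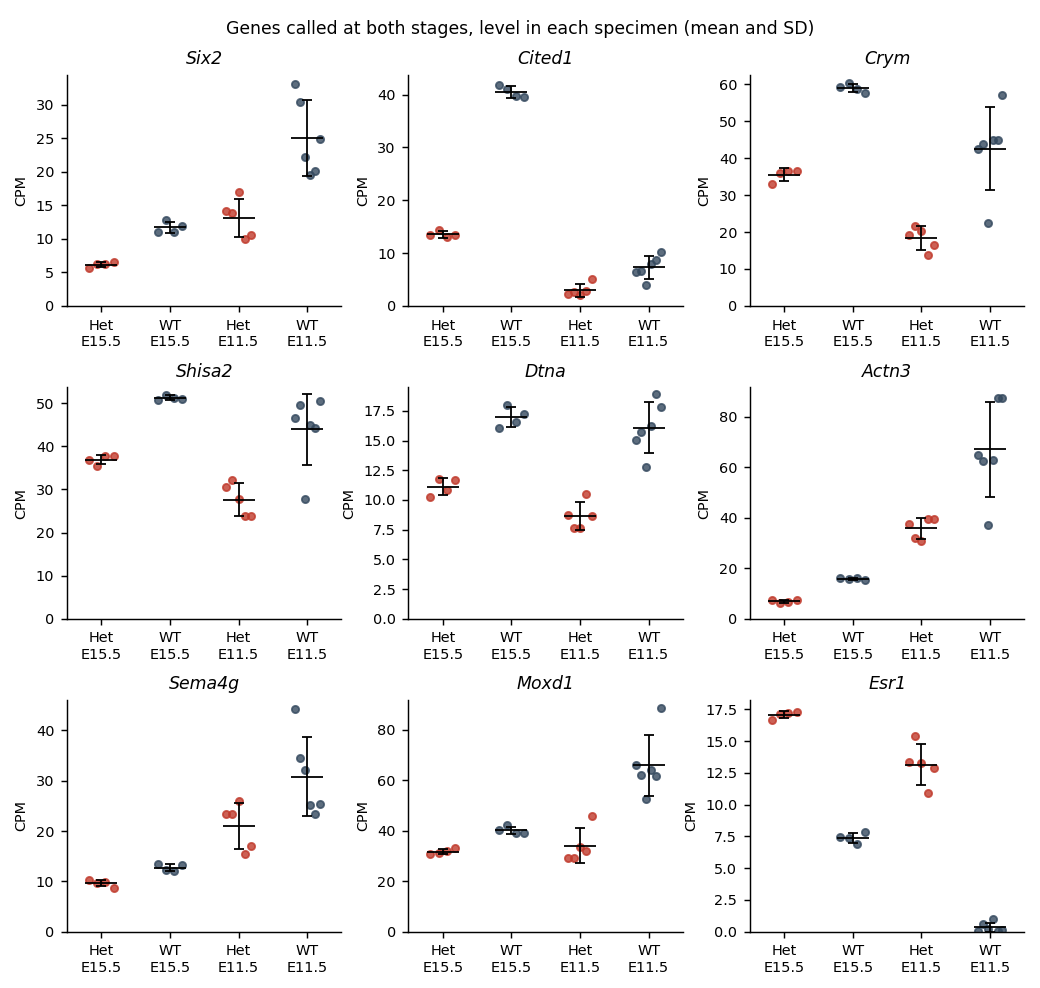
Level of the 9 genes called at both stages, in CPM on linear axes starting at 0, in each specimen of heterozygous and wild-type kidneys at E15.5 and then at E11.5. Points are specimens, the long bar is the mean and the whiskers are 1 SD. No gene's groups overlap at E15.5, and Actn3, Cited1, Sema4g and Shisa2 overlap at E11.5.

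Among the lasting genes of the nephron progenitor list, Cited1 had the largest fall. Cited1 (chrX:102247381-102252181, minus strand) encodes a transcriptional co-regulator that marks the undifferentiated cap mesenchyme. Heterozygous E15.5 kidneys held 13.3, 14.3, 13.0 and 13.5 CPM, against 41.8, 41.1, 39.7 and 39.5 CPM in wild type. Heterozygous E11.5 kidneys held 2.23, 2.62, 2.06, 2.84 and 5.06 CPM, against 6.44, 6.68, 3.92, 7.98, 8.78 and 10.1 CPM in wild type. The groups stood far apart at E15.5, and at E11.5 they overlapped through heterozygous replicate 5 and wild-type replicate 3. The change was −1.59 ± 0.04 at E15.5 (adjusted p = 1.97e-09) and −1.29 ± 0.19 at E11.5 (adjusted p = 0.014). The difference was −0.28 ± 0.20, with a 95% interval of −0.70 to 0.14, beside a wild-type change between stages of 2.54 ± 0.14. As a share of wild type, heterozygotes held 33.2% at E15.5 (95% interval 31.3% to 35.3%) and 41.0% at E11.5 (30.8% to 54.5%).

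Crym (chr7:120186380-120202111, minus strand) encodes mu-crystallin, a cytosolic protein that binds thyroid hormone. It measured 32.9, 36.0, 36.4 and 36.6 CPM in heterozygous E15.5 kidneys, against 59.3, 60.3, 58.6 and 57.5 CPM in wild type. At E11.5 it measured 19.3, 21.6, 20.4, 13.8 and 16.5 CPM in heterozygotes, against 42.4, 43.7, 22.5, 44.9, 44.8 and 57.0 CPM in wild type. Neither stage showed an overlap, although wild-type replicate 3 lay just above the highest heterozygote at E11.5. Crym fell by 0.74 ± 0.04 at E15.5 and by 1.27 ± 0.22 at E11.5 (adjusted p = 1.04e-06 and 0.0477). The difference of 0.52 ± 0.25 had an interval of −0.00 to 1.04 and an unadjusted p of 0.0509, so a smaller effect at the later stage is within its range and so is an equal one. Wild-type Crym changed by 0.43 ± 0.18 between the stages.

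The other lasting genes encode proteins of the cell surface, the secretory route and the cytoskeleton. Shisa2 (chr14:59625308-59631660, plus strand) encodes an endoplasmic reticulum protein that holds back Wnt and FGF receptors. It measured 36.8, 35.4, 37.7 and 37.7 CPM in heterozygous and 50.7, 51.99, 51.3 and 51.1 CPM in wild-type E15.5 kidneys, and 30.6, 32.1, 27.7, 23.8 and 23.8 CPM in heterozygous and 46.5, 49.6, 27.9, 45.0, 44.3 and 50.6 CPM in wild-type E11.5 kidneys. It was lower in heterozygotes at both stages, and the E11.5 overlap came from wild-type replicate 3. The change was −0.48 ± 0.03 at E15.5 and −0.73 ± 0.12 at E11.5, the difference 0.23 ± 0.15 and the wild-type change between stages 0.18 ± 0.11.

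Dtna (chr18:23415135-23659715, plus strand) encodes alpha-dystrobrevin, a member of the dystrophin-associated complex. Its levels were 10.2, 11.8, 10.8 and 11.6 CPM in heterozygous and 16.1, 18.02, 16.6 and 17.2 CPM in wild-type E15.5 kidneys, and 8.72, 7.61, 7.62, 10.5 and 8.63 CPM in heterozygous and 15.01, 15.7, 12.8, 16.2, 18.9 and 17.8 CPM in wild-type E11.5 kidneys. The groups were separate at both stages. The fall was −0.62 ± 0.05 at E15.5 and −0.86 ± 0.13 at E11.5, the difference 0.25 ± 0.16 and the wild-type change 0.14 ± 0.11.

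Actn3 and Sema4g were lower in heterozygotes at both stages while their wild-type levels fell strongly with age. Actn3 (chr19:4861216-4877909, minus strand) encodes alpha-actinin 3, best known from the Z-discs of fast skeletal muscle. It measured 7.34, 6.31, 6.52 and 7.29 CPM in heterozygous and 16.02, 15.9, 15.96 and 15.4 CPM in wild-type E15.5 kidneys, and 37.4, 31.9, 31.0, 39.7 and 39.6 CPM in heterozygous and 65.0, 62.5, 37.3, 62.8, 87.5 and 87.5 CPM in wild-type E11.5 kidneys. Its change was −1.21 ± 0.05 at E15.5 and −0.92 ± 0.13 at E11.5, the difference −0.30 ± 0.18 (95% interval −0.67 to 0.07) and the wild-type change −2.09 ± 0.13. Sema4g (chr19:44989101-45003397, plus strand), a transmembrane semaphorin, measured 10.3, 9.73, 9.85 and 8.74 CPM in heterozygous and 13.5, 12.2, 11.97 and 13.3 CPM in wild-type E15.5 kidneys. At E11.5 it measured 23.5, 23.4, 26.0, 15.4 and 17.04 CPM in heterozygotes, against 44.2, 34.5, 32.2, 25.2, 23.4 and 25.3 CPM in wild type. The E11.5 overlap was between heterozygous replicates 1 to 3 and wild-type replicates 4 to 6. With batch as a term the effect was −0.56 ± 0.09 there (adjusted p = 0.0206), and it was −0.40 ± 0.05 at E15.5. The difference was 0.16 ± 0.12 and the wild-type change −1.28 ± 0.08.

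Moxd1 (chr10:24223517-24302790, plus strand), a copper monooxygenase related to dopamine beta-hydroxylase, was the lasting lower gene with the smallest effect at E15.5. It measured 30.8, 31.1, 31.8 and 33.2 CPM in heterozygous and 40.2, 42.3, 39.1 and 39.0 CPM in wild-type E15.5 kidneys, and 29.4, 29.3, 33.7, 31.8 and 46.0 CPM in heterozygous and 65.9, 62.1, 52.8, 64.3, 61.9 and 88.7 CPM in wild-type E11.5 kidneys. The groups were separate at both stages, with heterozygous levels much alike at the 2 ages and wild-type levels further apart at E11.5. Moxd1 changed by −0.35 ± 0.03 at E15.5 and by −0.90 ± 0.15 at E11.5. The difference of 0.57 ± 0.19 (interval 0.17 to 0.97) had an unadjusted p of 0.00748 and did not pass the adjustment over all genes. The wild-type change was −0.63 ± 0.14.

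For 4 of the 8 lasting lower genes, Six2, Dtna, Sema4g and Shisa2, the 95% interval of the difference lay within 1.5-fold either way, which was so for 70% of all genes tested. For Cited1, Crym, Actn3 and Moxd1 it reached further, so the interval holds changes in effect larger than 1.5-fold between the stages. All 8 were called lower in knockout kidneys at E11.5 as well. In that comparison 1144 genes (7.09%) were called in either direction, and 4.94% of genes with a negative E15.5 effect were called lower. Six2 is the targeted gene, so its fall there follows from the genotype. The knockout change was −4.88 ± 0.30 for Crym and −1.24 ± 0.20 for Cited1. The step between heterozygote and knockout was not called for Cited1 (0.05 ± 0.22), Dtna (−0.12 ± 0.15) or Sema4g (−0.25 ± 0.10), and was called for Crym, Actn3, Moxd1 and Shisa2 (595 of all genes, 3.69%). The knockout effect shares its wild-type embryos with the E11.5 heterozygous effect and none with the E15.5 effect.

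**Figure D2:**
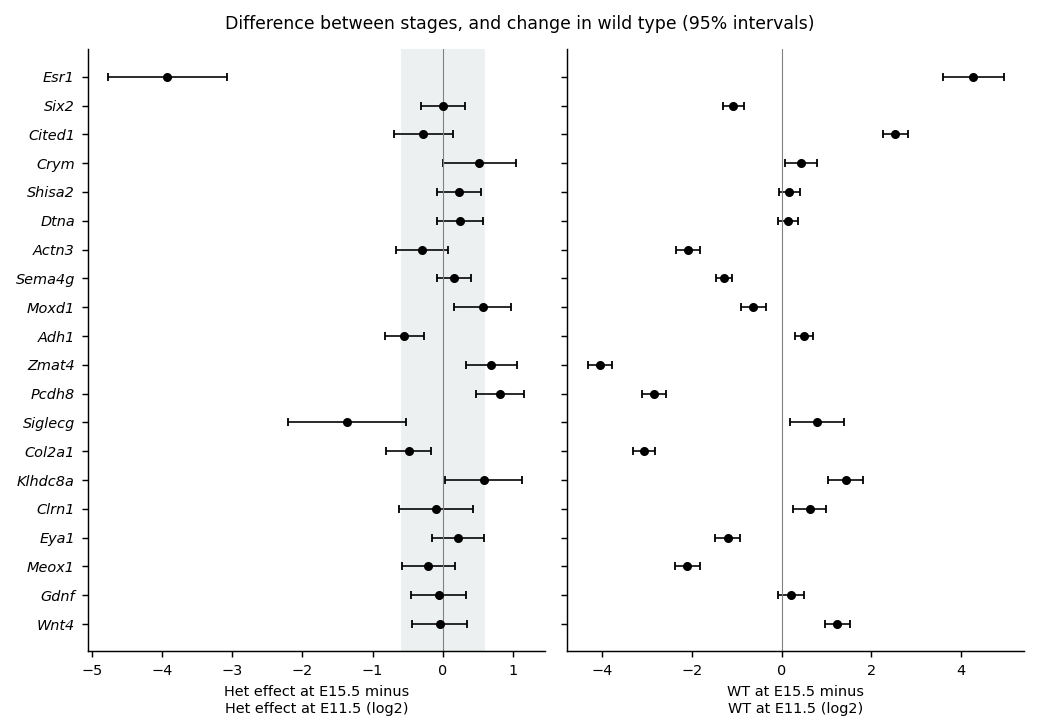
Difference between the heterozygous effects (E15.5 minus E11.5, left) and change between stages in wild type (E15.5 minus E11.5, right) for 20 genes, on the log2 scale with 95% intervals from the fit of 24 specimens. The shaded band is 1.5-fold either way. Esr1, at −3.92, is the gene whose difference passed the test, and wild-type changes run from −4.05 for Zmat4 to 4.27 for Esr1.

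Reads counted to Esr1 (chr10:4611593-5005614, plus strand), the gene of estrogen receptor alpha, were higher in heterozygotes at both stages, and Esr1 was the gene whose effect differed between them. The counts are per gene. Whether those of heterozygotes come from the Esr1 locus or from any receptor sequence at the targeted Six2 allele cannot be told apart, since the labels do not describe that allele, so the values below are counts for Esr1 and not established levels of the receptor's own RNA. They were 16.7, 17.1, 17.2 and 17.3 CPM in heterozygous E15.5 kidneys, against 7.47, 7.37, 6.88 and 7.84 CPM in wild type. At E11.5 it measured 13.4, 15.4, 13.3, 10.9 and 12.9 CPM in heterozygotes, against 0.0883, 0.613, 0.237, 0.985, 0.0516 and 0.0944 CPM in wild type. The heterozygous groups lay close together, and the wild-type level was near 0 at E11.5 and moderate at E15.5. The log2 effect was 1.20 ± 0.05 at E15.5 (adjusted p = 2.39e-07) and 5.1 ± 0.37 at E11.5 (adjusted p = 2.89e-06), and the difference was −3.92 ± 0.41 (95% interval −4.77 to −3.08, adjusted p = 3.31e-05). The Esr1 count in wild type rose by 4.27 ± 0.33 between E11.5 and E15.5, and that in heterozygotes changed by 0.35 ± 0.21. On the linear scale heterozygotes exceeded wild type by 9.69 ± 0.24 CPM at E15.5 and by 12.8 ± 0.73 CPM at E11.5 (SE). The wild-type mean was 7.39 ± 0.39 CPM at E15.5 and 0.345 ± 0.376 CPM at E11.5 (SD, n = 4 and n = 6). Knockout kidneys at E11.5 held 8.20, 5.62, 2.96, 5.05 and 7.44 CPM. The difference stayed called in all 34 other settings, between −4.70 and −3.69.

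Both genes called at E11.5 and not at E15.5 had differences that failed the adjustment over all genes. Adh1 (chr3:138260991-138290698, plus strand), the class I alcohol dehydrogenase, which also oxidises retinol, measured 17.4, 16.1, 14.6 and 11.9 CPM in heterozygous and 13.5, 13.8, 13.2 and 13.6 CPM in wild-type E15.5 kidneys. At E11.5 it measured 15.2, 13.7, 15.1, 16.6 and 16.3 CPM in heterozygotes, against 7.50, 9.27, 8.61, 8.92, 12.5 and 9.30 CPM in wild type. The groups overlapped at E15.5 and were separate at E11.5. The effect was 0.14 ± 0.08 at E15.5 (adjusted p = 0.693) and 0.71 ± 0.10 at E11.5 (adjusted p = 0.00765), with a difference of −0.55 ± 0.13 (unadjusted p = 0.000443, adjusted p = 1) and a wild-type change of 0.50 ± 0.10.

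Zmat4 (chr8:23636019-24156585, plus strand), a zinc finger gene, was strongly lower at the later age in both genotypes. It measured 1.30, 1.33, 1.63 and 1.51 CPM in heterozygous and 1.59, 1.67, 1.59 and 1.35 CPM in wild-type E15.5 kidneys, which overlapped. At E11.5 it measured 12, 16.2, 16.1, 14.9 and 16.7 CPM in heterozygotes, against 30.9, 31.2, 23.1, 21.9, 25.1 and 29.6 CPM in wild type, with no overlap. The effect was −0.10 ± 0.12 at E15.5 (adjusted p = 0.894) and −0.79 ± 0.11 at E11.5 (adjusted p = 0.00911). The difference was 0.70 ± 0.17 (unadjusted p = 0.000586, adjusted p = 1), beside a wild-type change of −4.05 ± 0.13.

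Most genes called at E15.5 had the same sign at E11.5, measured in other embryos. Of the 101 tested in all 3 fits (0.632% of such genes were called at E15.5), 92 (91.1%) had the same sign at E11.5, against 61% of all 15977 genes. Among those lower at E15.5 the count was 62 of 64 (96.9%) and among those higher it was 30 of 37 (81.1%). At an unadjusted p under 0.05, 48 of the 101 had the same direction at E11.5 and 0 the opposite one, against 6.32% of all genes in the direction of E15.5. The median effect of the lower genes was −0.38 at E15.5 and −0.32 at E11.5, and that of the higher genes 0.26 and 0.12, while the median of all genes was 0.00 and 0.01. Leaving out 1 E11.5 embryo at a time kept between 88 and 92 of them in the same direction. Within E11.5 batch 1 alone 84 of 100 kept the direction (47.8% of all genes), within batch 2 alone 87 of 101 (59.4%), and without the libraries above 5% ribosomal RNA 87 of 101 (59.2%).

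**Figure D3:**
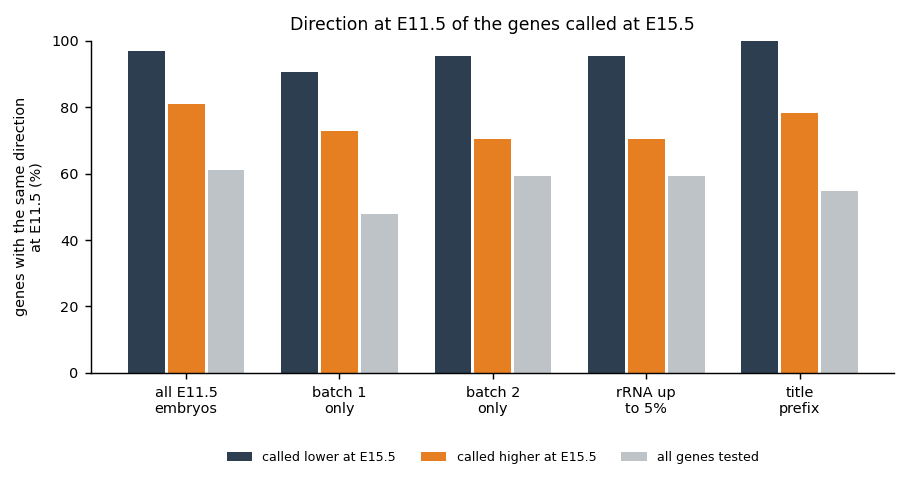
Share of genes with the same sign of the heterozygous effect at E11.5 as at E15.5, in percent, for genes called lower at E15.5, genes called higher at E15.5 and all genes tested. The 5 sets of bars are all E11.5 embryos, batch 1, batch 2, libraries with up to 5% ribosomal RNA, and a fit with the first part of each E11.5 title as a block. With all embryos the shares are 96.9%, 81.1% and 61.0%, and in each setting both called sets stand above all genes.

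**Figure D4:**
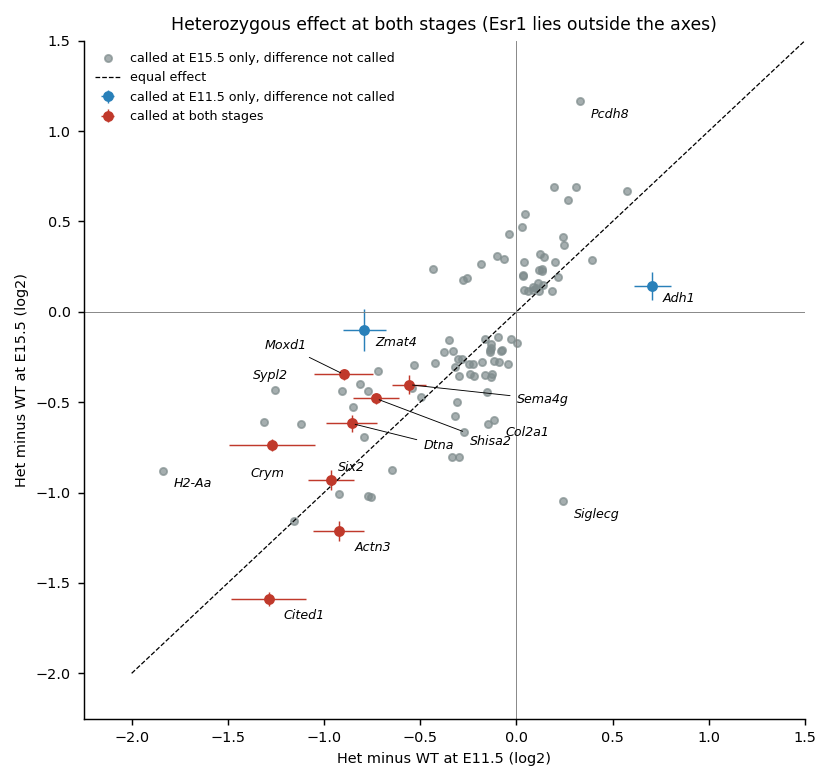
Heterozygous minus wild type at E15.5 (vertical) against E11.5 (horizontal), both log2, for the genes called at either stage and tested at both. Red points with bars of 1 SE were called at both stages, blue points at E11.5, grey points at E15.5, and the dashed line marks equal effects. Esr1, at 1.20 and 5.1, lies outside the axes. Most grey points share the sign at the 2 stages, and Siglecg stands on the opposite side of 0 at E11.5.

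The 92 genes called at E15.5 without a call at E11.5 or of the difference were largely small effects, 69 of them under 0.5 on the log2 scale. Their groups were separate at E11.5 for 4 of the 92, against 0.438% of all genes, and at E15.5, where the call chose them, for 90 (5.36% of all genes). The interval of the difference lay within 1.5-fold for 48 of the 92, against 70% of all genes. For the difference, 14 had an unadjusted p under 0.05, against 3.11% of all genes. Among these 14 were Pcdh8, Raet1e, Siglecg, Col2a1, Sypl2, Col11a2, Dync1i1, Stim2, Cldn9, Klhdc8a, Evpl, Rbm24 and Prune2. The sign was opposite at E11.5 for 9 of the 92, among them Siglecg, Hbb-bs, Stim2, Col12a1, Raet1e, Efemp1, Ngfr and Evpl, and none of the 9 had an unadjusted p under 0.05 there.

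Pcdh8 (chr14:79766775-79771312, minus strand), which encodes a protocadherin of the cell surface, came closest to a late-only call. Its effect had the same sign at E11.5 and was smaller there. It measured 7.86, 8.38, 8.44 and 9.76 CPM in heterozygous and 4.12, 3.89, 3.55 and 3.67 CPM in wild-type E15.5 kidneys, a full separation. At E11.5 it measured 28.8, 41.2, 38.0, 31.1 and 35.7 CPM in heterozygotes, against 26.8, 30.4, 21.7, 23.9, 28.3 and 30.2 CPM in wild type, with an overlap. The effect was 1.16 ± 0.07 at E15.5 (adjusted p = 5.99e-06) and 0.33 ± 0.11 at E11.5 (adjusted p = 0.507). The difference of 0.82 ± 0.16 (interval 0.48 to 1.16) had an unadjusted p of 4.95e-05 and an adjusted p of 0.429, and DESeq2 gave an adjusted p of 0.0136. Wild-type Pcdh8 fell by 2.84 ± 0.13 between E11.5 and E15.5. In knockout kidneys at E11.5 Pcdh8 was called higher (0.43 ± 0.11, adjusted p = 0.0205 in edgeR).

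The largest other increases at E15.5 were in genes of varied function. Klhdc8a, a kelch-domain gene, measured 7.61, 8.34, 7.59 and 6.98 CPM in heterozygous and 4.70, 4.47, 4.72 and 4.89 CPM in wild-type E15.5 kidneys. Its effect was 0.69 ± 0.06 at E15.5 and 0.20 ± 0.25 at E11.5, with a difference of 0.58 ± 0.26 (unadjusted p = 0.0372) and a wild-type change of 1.43 ± 0.19. In knockout kidneys at E11.5 Klhdc8a was called in the opposite direction (−2.06 ± 0.31). Adra1a, the alpha-1A adrenergic receptor gene, had a difference near 0. It measured 5.47, 5.15, 5.49 and 6.06 CPM in heterozygous and 3.53, 3.69, 3.56 and 3.11 CPM in wild-type E15.5 kidneys, and 3.92, 3.98, 4.67, 2.20 and 2.51 CPM in heterozygous and 2.74, 2.18, 1.60, 1.92, 1.60 and 2.31 CPM in wild-type E11.5 kidneys. The effects were 0.67 ± 0.07 and 0.58 ± 0.19, the difference 0.02 ± 0.24 and the wild-type change 0.67 ± 0.18, but the E11.5 effect was not called (adjusted p = 0.507).

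Prune2 had an effect of 0.69 ± 0.08 at E15.5 and 0.31 ± 0.12 at E11.5, with a wild-type change of −0.70 ± 0.12. Rbm24, an RNA-binding protein gene, had 0.54 ± 0.07 and 0.04 ± 0.20, with a wild-type change of −0.42 ± 0.18. Nap1l2, a nucleosome assembly protein gene, had 0.62 ± 0.11 and 0.27 ± 0.20, with a wild-type change of −1.80 ± 0.21, and its groups touched at E15.5. Tcf23, a basic helix-loop-helix gene, was too low at E11.5 to be tested there and was called at E15.5 (0.48 ± 0.08), with a wild-type change of 5.96 ± 0.38. Nap1l2 and Tcf23 lost their E15.5 call in 6 of the 8 fits that left out 1 specimen.

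The largest other falls at E15.5 included Clrn1, Kazald1, Ocm, Siglecg, Sstr3 and H2-Eb1. Clrn1 encodes clarin 1, a membrane protein known from Usher syndrome. It measured 3.202, 3.55, 3.90 and 4.11 CPM in heterozygous and 6.73, 8.44, 7.17 and 7.30 CPM in wild-type E15.5 kidneys, and 1.91, 2.74, 2.68, 2.24 and 3.76 CPM in heterozygous and 6.71, 4.22, 4.15, 4.43, 4.80 and 6.51 CPM in wild-type E11.5 kidneys. The groups were separate at both stages, and the effects were −1.01 ± 0.07 and −0.92 ± 0.25 with a difference of −0.10 ± 0.26, although the E11.5 effect was not called (adjusted p = 0.361). Wild-type Clrn1 changed by 0.63 ± 0.18, and knockout kidneys showed −4.09 ± 0.33.

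Kazald1, which encodes a secreted protein with a Kazal domain, measured 1.45, 1.45, 1.68 and 1.58 CPM in heterozygous and 4.56, 4.49, 4.86 and 4.52 CPM in wild-type E15.5 kidneys. It was below 1 CPM in all E11.5 specimens and was not tested there. The E15.5 effect was −1.58 ± 0.08 (adjusted p = 2.27e-06), the difference in the joint fit −0.51 ± 0.31 and the wild-type change 2.74 ± 0.19. Ocm, which encodes the calcium-binding protein oncomodulin, was also not tested at E11.5 alone. It measured 0.450, 0.540, 0.348 and 0.430 CPM in heterozygous and 1.21, 1.24, 1.398 and 1.20 CPM in wild-type E15.5 kidneys, and 0.0490, 0.119, 0.206, 0.212 and 0.0464 CPM in heterozygous and 0.618, 0.477, 0.534, 1.08, 0.723 and 1.27 CPM in wild-type E11.5 kidneys. Its groups were separate at both stages, with an E15.5 effect of −1.53 ± 0.16, a difference of 1.26 ± 0.46 (unadjusted p = 0.0101) and a wild-type change of 0.74 ± 0.26.

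Siglecg, a sialic acid-binding lectin of B cells, had opposite signs at the stages without a call of the difference. It measured 0.701, 0.965, 0.847 and 0.901 CPM in heterozygous and 1.72, 2.02, 1.68 and 1.62 CPM in wild-type E15.5 kidneys, and at E11.5 0.955 to 1.65 CPM (median 1.25) in heterozygotes against 0.534 to 1.32 CPM in wild type. The effect was −1.05 ± 0.12 at E15.5 and 0.24 ± 0.34 at E11.5, the difference −1.36 ± 0.41 (unadjusted p = 0.00284) and the wild-type change 0.80 ± 0.29. Sstr3, the somatostatin receptor 3 gene, had −1.02 ± 0.17 at E15.5 and −0.76 ± 0.28 at E11.5, with a wild-type change of 0.66 ± 0.22, and lost its E15.5 call in 6 of 8 fits without 1 specimen.

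Among 15 regulators of kidney outgrowth and nephron formation besides Cited1, 2 were called at E15.5 (0.57% of all genes), Eya1 higher and Meox1 lower, and 0 at E11.5 (0.0681%). They were chosen with results of these samples known, and the difference was not called for any of the 16. The interval of the difference lay within 1.5-fold for 7 of the 16, against 70% of all genes. Eya1, a co-activator phosphatase that acts with Six2 and its relatives, measured 73.7, 78.3, 76.7 and 79.5 CPM in heterozygous and 60.4, 63.7, 62.7 and 66.0 CPM in wild-type E15.5 kidneys. At E11.5 it ranged from 101 to 228 CPM in heterozygotes and from 98.8 to 214 CPM in wild type, so the E15.5 change of 0.28 ± 0.03 (adjusted p = 0.00137) stood beside 0.04 ± 0.14 at E11.5, a difference of 0.22 ± 0.18 and a wild-type change of −1.20 ± 0.13. The homeobox gene Meox1 measured 12.6, 13.0, 11.1 and 14.2 CPM in heterozygous and 18.7, 17.8, 16.2 and 18.3 CPM in wild-type E15.5 kidneys. Its effect was −0.50 ± 0.06 at E15.5 (adjusted p = 0.00339) and −0.31 ± 0.13 at E11.5 (adjusted p = 0.57), with a wild-type change of −2.10 ± 0.14. Its relative Meox2 had −0.31 ± 0.06 and −0.41 ± 0.16, neither called (adjusted p = 0.0616 and 0.557).

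Gdnf, the ligand that draws out the ureteric bud, measured 46.6, 51.2, 46.8 and 57.7 CPM in heterozygous and 49.3, 51.3, 48.0 and 49.6 CPM in wild-type E15.5 kidneys. Its effect was 0.02 ± 0.04 at E15.5 and 0.05 ± 0.15 at E11.5, and the difference −0.06 ± 0.19 had an interval of −0.46 to 0.34. Its receptor gene Ret had 0.16 ± 0.04 and 0.28 ± 0.14, and Wnt11, expressed in bud tips downstream of Ret, had 0.12 ± 0.04 and 0.23 ± 0.12. Wnt9b, the bud signal to the mesenchyme, had 0.09 ± 0.04 and 0.32 ± 0.21, and Wnt4, which starts the epithelial change of nephron progenitors, had 0.09 ± 0.04 and 0.12 ± 0.15. None of these 5 was called at either stage. The wild-type changes were 0.21 ± 0.14 for Gdnf, −0.09 ± 0.13 for Ret, 0.28 ± 0.11 for Wnt11, 0.63 ± 0.18 for Wnt9b and 1.24 ± 0.14 for Wnt4.

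Osr1, a zinc finger gene of the intermediate mesoderm and its progenitors, was the regulator with the smallest p for the difference (0.34 ± 0.14, unadjusted p = 0.0244). Its effect was 0.10 ± 0.06 at E15.5 and −0.23 ± 0.10 at E11.5, with a wild-type change of −1.39 ± 0.11. The difference was −0.43 ± 0.28 for Lhx1, −0.28 ± 0.33 for Pax2, −0.27 ± 0.23 for Pax8, −0.21 ± 0.21 for the stromal gene Foxd1, −0.11 ± 0.26 for Sall1 and −0.09 ± 0.15 for Wt1. None was called at either stage, and their wild-type changes were 2.45 ± 0.20 for Lhx1, −0.12 ± 0.24 for Pax2, 2.49 ± 0.17 for Pax8, −1.40 ± 0.15 for Foxd1, −0.06 ± 0.18 for Sall1 and −0.32 ± 0.11 for Wt1.

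Of the 25 genes of the nephron progenitor list, which leaves out Six2, 7 were lower and 1 higher at E15.5 (background 0.362% and 0.208%), and 2 were lower at E11.5 (background 0.0558%). The 7 were Cited1, Meox1, Crym, Spock2, Dpf3, Traf1 and Phf19, the 1 was Eya1, and the 2 at E11.5 were Cited1 and Crym. The median effect over the list was −0.07 at E15.5 and −0.19 at E11.5 (all genes 0.00 and 0.01), and that of the difference was 0.05 (all genes −0.01). The list's summed level was 1683 to 1780 CPM in heterozygous and 1800 to 1899 CPM in wild-type E15.5 kidneys, without overlap, and 1435 to 2069 CPM in heterozygous and 1593 to 2239 CPM in wild-type E11.5 kidneys, with overlap. The list was drawn up with results of these samples known, so its count is not independent evidence of its direction. In edgeR's test of the difference, Capn6 had 0.33 (unadjusted p = 0.0175) and Rspo1 0.43 (unadjusted p = 0.0264). Spock2, a secreted proteoglycan, had −0.22 ± 0.03 at E15.5 and −0.33 ± 0.16 at E11.5, and Dpf3, a chromatin-remodelling subunit, −0.34 ± 0.06 and −0.13 ± 0.12.

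In the other 22 lists the heterozygous calls were Hbb-bs, an adult beta globin, and Col2a1, the type II collagen of cartilage, both at E15.5. These 2 of 309 genes tested (0.647%) stand near the 0.57% of all genes, and 0 of 285 were called at E11.5. The medians at E15.5 and E11.5 were 0.06 and 0.14 for early nephron genes, 0.10 and 0.16 for ureteric bud tip genes, 0.02 and 0.11 for renal stroma genes, and 0.02 and 0.07 for proliferation genes. Col2a1 measured 33.9, 39.5, 38.8 and 42.2 CPM in heterozygous and 58.8, 58.6, 56.8 and 58.0 CPM in wild-type E15.5 kidneys, and at E11.5 it ranged from 339 to 691 CPM in heterozygotes and from 354 to 575 CPM in wild type. Its effect was −0.60 ± 0.05 at E15.5 and −0.11 ± 0.11 at E11.5, the difference −0.49 ± 0.15 (unadjusted p = 0.00458) and the wild-type change −3.07 ± 0.12. The other cartilage genes of its list, Sox5, Acan and Matn1, were not called.

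Macrophage and erythroid markers are given here as values, since their medians lay further from 0 at E11.5 than those of the other lists with at least 10 genes tested. The 15 macrophage genes had a median effect of −0.07 at E15.5 and 0.42 at E11.5, and a median difference of −0.51, with 0 called and 4 at an unadjusted p under 0.05 for the difference. They summed to 141 to 148 CPM in heterozygous and 144 to 157 CPM in wild-type E15.5 kidneys, and to 125 to 233 CPM in heterozygous and 88.7 to 185 CPM in wild-type E11.5 kidneys. Emr1, the F4/80 antigen gene, had −0.09 ± 0.05 at E15.5 and 0.70 ± 0.25 at E11.5, a difference of −0.86 ± 0.33 (unadjusted p = 0.0154). The E11.5 effect of Emr1 was 1.25 within batch 1 and 0.43 within batch 2. With batch 1 alone the macrophage genes Emr1, C1qc and Fcrls were 3 of the 6 calls of the difference, and with batch 2 alone none of the 3 was called. The 12 erythroid genes found had a median effect of −0.10 at E15.5 and −0.65 at E11.5. The 3 embryonic globins summed to 2041 to 4587 CPM in heterozygous and 1993 to 8480 CPM in wild-type E11.5 kidneys. Hbb-bs measured 581, 668, 595 and 541 CPM in heterozygous and 515, 499, 499 and 497 CPM in wild-type E15.5 kidneys (0.24 ± 0.04, adjusted p = 0.0354), and had −0.43 ± 0.47 at E11.5. The part of these cells in the other results was not tested.

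Some genes called at E15.5 lay next to each other in the genome. Within 1 Mb of another called gene were 21 of the 101 (20.8%), against 12.4% of other genes tested. Cutal, Phf19 and Traf1 lie together on chromosome 2 (chr2:34874396-34961772), and were lower at both stages. Traf1, an adaptor of TNF receptors, measured 11.04, 10.2, 11.2 and 9.54 CPM in heterozygous and 14.01, 13.3, 14.4 and 14.99 CPM in wild-type E15.5 kidneys. The effects at E15.5 and E11.5 were −0.44 ± 0.05 and −0.77 ± 0.21 for Traf1, −0.42 ± 0.04 and −0.54 ± 0.16 for Phf19, a Polycomb accessory protein gene, and −0.44 ± 0.05 and −0.90 ± 0.21 for Cutal. The E11.5 effects were not called, and the differences were 0.31 ± 0.23, 0.12 ± 0.20 and 0.40 ± 0.23.

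The MHC class II genes H2-Aa, H2-Ab1 and H2-Eb1, which encode the chains that present antigen to T cells, were called lower at E15.5. H2-Eb1 measured 1.65, 1.45, 1.30 and 1.11 CPM in heterozygous and 2.93, 3.05, 2.51 and 2.69 CPM in wild-type E15.5 kidneys, and 0.846 to 1.42 CPM in heterozygotes against 1.01 to 3.11 CPM in wild type at E11.5. The effects at E15.5 and E11.5 were −1.02 ± 0.12 and −0.77 ± 0.29 for H2-Eb1, −0.88 ± 0.15 and −1.84 ± 0.63 for H2-Aa, and −0.29 ± 0.05 and −0.53 ± 0.19 for H2-Ab1. None was called at E11.5, where the macrophage markers above had a positive median.

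Besides Actn3, the skeletal muscle genes Myoz1, Trim63, Casq1, Mapk12 and Sypl2 were called lower at E15.5 and had negative effects at E11.5 that were not called. These 5, Cutal and the MHC genes other than H2-Eb1 were chosen after their values were seen. All were taken from genes called lower, so the 5 do not show the direction of muscle genes as a whole. Myoz1, a Z-disc protein gene, measured 0.450, 0.347, 0.424 and 0.553 CPM in heterozygous and 0.869, 1.17, 0.917 and 0.996 CPM in wild-type E15.5 kidneys, and 0.238 to 0.511 CPM in heterozygotes against 0.566 to 1.03 CPM in wild type at E11.5. The effects were −1.16 ± 0.15 and −1.15 ± 0.41, the difference 0.00 ± 0.43 and the wild-type change 0.56 ± 0.28. Trim63, a muscle ubiquitin ligase gene, had −0.88 ± 0.10 and −0.65 ± 0.18. Defining muscle genes of the muscle and cartilage list were not called. Acta1 had 0.35 at E15.5 and −0.10 at E11.5, Myh3 0.21 and −0.10, and Tnnc1 −0.22 and −0.57. Myod1 had −0.23 at E15.5. Des had 0.06 at E15.5 and −0.09 at E11.5, Tnnt3 0.33 and 0.27, and Actc1 −0.20 and −0.25, none called, and Myog was at 0.345 CPM in heterozygous and 0.776 CPM in wild-type E15.5 kidneys (adjusted p = 0.0621).

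The direction in knockout kidneys gives a further reading of the E15.5 calls, since the knockout effect at E11.5 and the heterozygous effect at E15.5 share no specimen. In batch 1, ribosomal RNA took 0.878% to 12.5% of counts in knockout and 20.5% to 26.6% in wild-type libraries. The knockout effect was fitted with sex and batch and was not recomputed under the other settings. Six2, the targeted gene, is among the 101. Of the 101 genes, 85 (84.2%) had the same sign in knockouts, against 55.1% of all genes. The knockout effect was called in the same direction for 54 (53.5%, against 4.63% of all genes) and in the opposite direction for 8 (2.48% of all genes). Among the genes called lower at E15.5 it was called lower for 44 of 64, against 4.94% of all genes with a negative E15.5 effect, and among those called higher it was called higher for 10 of 37, against 4.32% of all genes with a positive one.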

How the data were processed

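RNA came from snap-frozen whole embryonic kidneys and was purified with the QIAGEN RNeasy micro kit, and libraries followed standard Illumina protocols, per the labels. Reads were mapped to mm10 with STAR 2.4.0h1 and assigned to genes with featureCounts 1.4.6, per the submitters' processing notes. The deposited table holds the authors' raw read counts per gene, with 0 columns left unmapped to a sample. Whether the counting used strand is not given in the sources used here, so overlapping genes share an uncertainty.

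From these counts, runs of 1 specimen (the same S number at E15.5, the same embryo name at E11.5) were summed. All 8 E15.5 specimens had their runs correlate best with each other (deviations from the group mean, 0.196 to 0.691, against at most 0.172 with any other). Genes with low counts were filtered (filterByExpr, minimum count 10, minimum total 15), libraries were scaled by TMM, and edgeR 4.0.16 (R 4.3.3) fitted quasi-likelihood models with Benjamini-Hochberg adjustment at 0.05. E15.5 was fitted with genotype and sex (8 specimens), E11.5 with genotype, sex and batch (16 specimens), and the difference between stages and the change in wild type over all 24 specimens with sex and E11.5 batch, so a printed difference can depart slightly from the subtraction of the stage effects. The joint fit took 1 spread per gene over both stages, although the spread was 4.56% at E15.5 and 12.7% at E11.5. The standard errors, intervals and p-values printed for the difference therefore assume equal spread. The limma fit with weights per group, which does not, also gave 1 call of the difference. A gene was called lasting when called at both stages in the same direction. It was called early only or late only when called at 1 stage with the difference called too. E11.5 libraries of batch 1 and batch 2 carry the title's replicate numbers 1 and 2, so batch is also the replicate block. At E15.5 every specimen was run in both batches. Sex was 2 female and 3 male for heterozygous and 4 female and 2 male for wild-type E11.5 specimens. It was 4 female and 1 male for knockout E11.5 specimens, and 1 female and 3 male for each E15.5 group.

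Genes named were Six2, all genes called in the difference, at both stages or at E11.5, the 8 largest changes in each direction at E15.5 with at least 1 CPM, 16 kidney regulators, and called members of 23 gene lists (347 genes, 2 matched by an older symbol and 1, Ahsp, not found), up to 4 a list, or else the member with the smallest p for the difference. Some genes counted are not named here. The members and lists were chosen with earlier results of these data known. The fitting was also run on simulated counts with known changes at E15.5 alone. Each gene's spread was the same there at both stages, unlike in these data. That run therefore does not gauge the test of the difference at the unequal spreads found here. Alternatives were DESeq2 1.42.0, limma 3.58.1 with weights, no filter, other covariates, single batches and leaving out each specimen. Nothing in the labels says whether specimens of a group came from separate litters, so p-values measure the spread between these specimens. Gene positions came from an annotation of GRCm38 matched by symbol, and upstream sequences from RefSeq (GRCm38.p6).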

Additional observations from a re-analysis of the deposited data

Results flagged for a closer look

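The effect on Esr1 differed between the stages by −3.92 on the log2 scale (E15.5 minus E11.5), the 1 gene for which the test of the difference passed. Whether the heterozygous counts come from the Esr1 locus or from any receptor sequence at the targeted allele cannot be told apart. Its heterozygous levels were 16.7 to 17.3 CPM at E15.5 and 10.9 to 15.4 CPM at E11.5.

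In 39 genes and 156 groups of specimens, 10 held a specimen far from the others of its group by Dixon's test, where chance gives about 1 in 20. At E15.5 these were heterozygous replicate 1 for Crym (32.9 CPM, the others 36.0 to 36.6), wild-type replicate 4 for Actn3 (15.4 CPM, the others 15.92 to 16.02), wild-type replicate 3 for Ocm (1.398 CPM, the others 1.20 to 1.24) and wild-type replicate 1 for Tcf23 (2.43 CPM, the others 2.63 to 2.66). At E11.5 heterozygous replicate 5 stood apart for Cited1 (5.06 CPM, the others 2.06 to 2.84) and Moxd1 (46.0 CPM, the others 29.3 to 33.7), and heterozygous replicate 4 for Sstr3 (1.02 CPM, the others 0.511 to 0.618). Wild-type replicate 6 was high for Moxd1 (88.7 CPM, the others 52.8 to 65.9), wild-type replicate 5 high for Adh1 (12.5 CPM, the others 7.50 to 9.30), and wild-type replicate 3 low for Shisa2 (27.9 CPM, the others 44.3 to 50.6).

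Wild-type E11.5 replicate 3 was also the lowest wild-type embryo for Crym (22.5 CPM), Actn3 (37.3 CPM) and Cited1 (3.92 CPM), while its Six2 (22.1 CPM) and Esr1 (0.237 CPM) lay within the wild-type range. Without it 17 genes were called at E11.5, against 11 with it.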

How the results depend on the processing

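The single call of the difference, Esr1, held in all 34 other settings (−4.70 to −3.69, adjusted p at most 0.0103). None of the called effects recomputed changed sign in these settings, while some values near 0 that were not called did, such as the difference for Six2. DESeq2 gave 3 calls of the difference (also Kcnmb2 and Pcdh8), 43 at E11.5, 15 lasting genes and 1 late-only gene. With no filter 32 genes were called at E11.5. With no replicate block at E11.5 (batch left out) there were 1 E11.5 call and 1 lasting gene, and the same 1 and 1 without libraries above 5% ribosomal RNA. Without the knockouts they were 6 and 5, and with an own batch level for the embryo run in both batches 7 and 5. The title prefix as a block gave 22 calls of the difference, 5 early-only genes (among them Gabrp, C3ar1, Ogfrl1 and Aldh3b2) and 1 late-only gene (Pcdh8). E11.5 batch 1 alone gave 6 calls of the difference (Esr1, Emr1, C1qc, Fcrls, Lpl and Pcdh19) and 0 at E11.5 in edgeR (1066 genes at an unadjusted p under 0.05). It gave 0 lasting genes and 1 under the late-only rule, Esr1, whose larger E11.5 effect had lost its call. Batch 2 alone gave 2 at E11.5 and 1 lasting. E15.5 batch 2 runs alone gave 43 calls at E15.5. Stage effects from the fit of all 24 specimens, an alternative chosen after seeing the data, gave 61 calls at E11.5 and 13 at E15.5. Leaving out 1 specimen at a time gave 1 to 17 calls at E11.5, 66 to 79 at E15.5, 1 to 10 lasting genes, 1 call of the difference, 0 early-only and 0 late-only genes. With the title number as a replicate block at E15.5, 82 genes were called and 73 of the 104 remained. With 4 pairs the values do not settle whether these numbers pair the specimens (same-number correlations −0.237 to 0.452, 2 of 4 over 0.1, and 3 of 8 specimens closest to their own number). The cause of these shifts was not tested. The E11.5 spread of 12.7% and depths from 13439802 counts limit what the difference can show.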
